A study of Bos taurus with 2 samples.

Results

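The genes described here are 3 simple-epithelial keratins (KRT8, KRT18 and KRT19), 5 epithelial polarity and junction genes (RAB25, AP1M2, CRB3, CLDN3 and ELF3) and the desmosomal cadherin DSC2. They were chosen by name, and all 9 are among the 17846 gene symbols of the count table. Single cells were profiled with 10x 3' v3.1 chemistry from bovine (Bos taurus) chimeric embryos that carried bovine embryonic stem cells and were flushed at day 25. The embryos were digested with papain and DNase I and the cells were sorted before loading; the sources used here give neither the gate, nor the donor cell line, nor the number of embryos. There are 2 samples, replicates 1 and 2 of 1 group, so cell classes were compared with each other inside each replicate. The labels do not say that the replicates came from separate embryos. With replicate as a block, p-values measure only the spread of class differences between these samples, which may be technical. That spread was largely pooled over genes, and wholly so for the median gene in the comparison of keratin-only cells.

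Keratins 8, 18 and 19 are intermediate filament proteins of simple epithelia. KRT8 is a type II keratin that pairs with the type I keratins KRT18 or KRT19, and trophoblast is a tissue rich in them. Epithelial cells also sort proteins between an apical and a basolateral surface. RAB25 is a small GTPase of apical recycling endosomes, AP1M2 a subunit of the clathrin adaptor that sorts basolateral cargo, CRB3 a Crumbs-family protein of the apical membrane, and CLDN3 a claudin of tight junctions. ELF3 is an ETS transcription factor of epithelia, and DSC2 joins cells at desmosomes.

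Cells were put into classes by counts of unique molecular identifiers (UMIs, which mark single captured transcripts) of genes that are not among the 9. Collagen VI-positive cells (38 and 67 in replicates 1 and 2) had 3 or more UMIs of COL6A1, COL6A2 and COL6A3. PAG- or PRP-high cells (13 and 13) had 10 or more UMIs of pregnancy-associated glycoprotein (PAG) and prolactin-related protein (PRP) genes, which ruminant trophoblast makes. Neurons (624 and 732) had 3 or more UMIs of DCX, STMN2, ELAVL3 and ELAVL4. SOX2-positive cells (406 and 595) had 2 or more SOX2 UMIs and were not neurons. Cells that met no rule and held no SOX2 UMI are called the remaining cells (571 and 639). On lists the rules did not use, 16 of 18 mesenchymal genes were higher and 2 lower in collagen VI-positive than in SOX2-positive cells. In that contrast 23.9% of all tested genes were called higher and 26.6% lower. Of 12 tested trophoblast genes, 10 were higher and none lower in PAG- or PRP-high than in collagen VI-positive cells. There 8.9% of all tested genes were called higher and 20.5% lower. The expression filter could admit a gene on its level in a single class, so some were possibly tested only through PAG- or PRP-high cells. TKDP1, for example, had 19 UMIs there and 0 in collagen VI-positive cells. The trophoblast count therefore describes that class and is no check on it. The 4356 kept cells had a median of 4987 and 5713 UMIs in replicates 1 and 2. The classes differed in depth: the median was 10930 and 12771 UMIs in collagen VI-positive cells, 12550 and 8135 in PAG- or PRP-high cells, 6287 and 7364 in SOX2-positive cells, 6955 and 7704 in neurons, and 2817 and 2795 in the remaining cells. The median share of ribosomal protein UMIs also differed between classes, at 23.1% and 26.9%, 25.1% and 32.1%, 5.47% and 10.7%, 5.77% and 11.7%, and 3.60% and 3.22% in that order.

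Keratin transcripts and polarity transcripts were highest in different classes. Collagen VI-positive cells held the highest KRT8 and KRT19 levels and almost no polarity gene. PAG- or PRP-high cells held all 5 polarity genes, with KRT8 and KRT19 at lower levels than in collagen VI-positive cells. SOX2-positive cells and neurons held lower mean KRT8 and KRT19 levels than both, while KRT18 levels overlapped between classes. The highest keratin counts among SOX2-positive cells and neurons were in a small share of the cells. Levels are CPM, the UMI count of a gene scaled to a fixed UMI total of its class. The assay counts 3' ends, so levels of different genes are not compared here.

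KRT19 stood at 6409 and 7005 CPM in collagen VI-positive cells (replicates 1 and 2), 844 and 1330 in PAG- or PRP-high cells, 207 and 248 in the remaining cells, 94.5 and 85.5 in SOX2-positive cells, and 63.5 and 121 in neurons. The first 3 classes did not overlap in that order, while SOX2-positive cells lay between the replicates of the neurons. The edgeR quasi-likelihood fit on summed counts, with Benjamini-Hochberg adjustment over all 12952 genes tested, put KRT19 7.02 log2 units higher in collagen VI-positive than in SOX2-positive cells (SE 0.21, adjusted p = 6.74e-14). Between collagen VI-positive cells and neurons the KRT19 difference was 6.90 (SE 0.21, adjusted p = 5.60e-14). KRT19 was lower in PAG- or PRP-high than in collagen VI-positive cells by a log2 value of -2.79 (SE 0.20, adjusted p = 1.83e-08).

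Markers of other cell types were present in collagen VI-positive cells beside their keratins. The list of 16 yolk sac endoderm genes summed to 25925 and 25873 CPM there, against 235 and 326 in SOX2-positive cells, while APOA2, APOB, AFP, FGA, FGB, FGG and ALB had 0 UMIs. Most of the sum was the apolipoprotein APOA1 (17030 and 17664 CPM) and the retinol carrier RBP4 (8844 and 8147 CPM), and 4 of the 7 genes tested in the list were higher and 1 lower than in SOX2-positive cells by edgeR. The mesothelium list of 9 genes summed to 47.6 and 91.4 CPM against 6.96 and 7.28, with MSLN and HAND2, the 2 tested, higher. Of 12 tested trophoblast genes 1 was higher and 2 lower, the 1 being the transcription factor HAND1 at 331 and 358 CPM against 0.733 and 1.82. Beside these list counts, 23.9% of all tested genes were called higher and 26.6% lower in this contrast. The part of other cell types in the keratin levels of collagen VI-positive cells was not tested.

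KRT8 followed the same order of classes as KRT19. Its level was 2020 and 1782 CPM in collagen VI-positive cells, 510 and 463 in PAG- or PRP-high cells, 149 and 143 in the remaining cells, 97.8 and 83.7 in SOX2-positive cells, and 59.4 and 111 in neurons. The edgeR log2 difference from SOX2-positive cells was 5.18 for collagen VI-positive cells (SE 0.26, adjusted p = 5.00e-07) and 3.09 for PAG- or PRP-high cells (SE 0.39, adjusted p = 0.000322). KRT8 was lower in PAG- or PRP-high than in collagen VI-positive cells, with a log2 value of -2.09 (SE 0.31, adjusted p = 0.00121). KRT8 and KRT18 have processed copies in mammalian genomes, so their counts are uncertain where reads could be shared with such copies.

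KRT18 levels lay closer together. They stood at 79.3 and 127 CPM in collagen VI-positive cells, 220 and 127 in PAG- or PRP-high cells, 112 and 84.4 in SOX2-positive cells, and 47.1 and 101 in neurons. All 4 classes overlapped with at least 1 other class, and KRT18 did not pass the edgeR threshold in any of the 6 class contrasts. The log2 difference was 0.95 between collagen VI-positive and SOX2-positive cells (SE 0.61, adjusted p = 0.269) and 1.53 between PAG- or PRP-high and SOX2-positive cells (SE 0.88, adjusted p = 0.238). The KRT18 call depended on settings: DESeq2 placed it past the threshold in PAG- or PRP-high cells against SOX2-positive cells (log2 1.60, adjusted p = 0.00238) and against neurons (1.90, adjusted p = 0.000249), and in collagen VI-positive cells against neurons (1.03, adjusted p = 0.0398). With looser class thresholds edgeR called KRT18 higher in collagen VI-positive than in SOX2-positive cells (0.97, adjusted p = 0.000123) and neurons (1.29, adjusted p = 7.14e-07). It then also called KRT18 higher in PAG- or PRP-high cells than in SOX2-positive cells (1.40, adjusted p = 0.000183) and neurons (1.72, adjusted p = 6.66e-06).

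**Figure D1:**
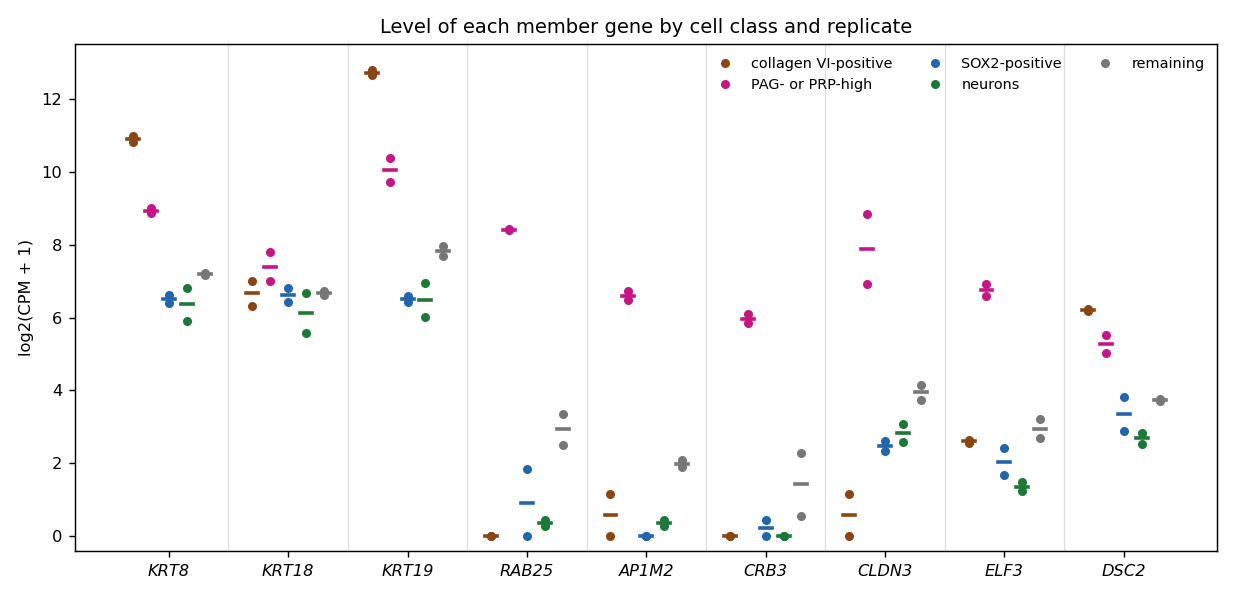
Level of the 9 genes in each cell class, as log2(CPM + 1); each point is 1 replicate and each short line the mean of the 2 replicates. KRT8 and KRT19 are highest in collagen VI-positive cells, RAB25, AP1M2, CRB3, CLDN3 and ELF3 in PAG- or PRP-high cells, and KRT18 overlaps between classes.

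The balance of the 3 keratins therefore differed between classes. Per KRT18 UMI, collagen VI-positive cells held 25.5 KRT8 UMIs in replicate 1 (95% exact counting interval 17.7 to 38.0) and 14.0 in replicate 2 (11.5 to 17.3). The ratio was 2.31 (1.54 to 3.55) and 3.65 (2.11 to 6.65) in PAG- or PRP-high cells, 0.873 (0.738 to 1.03) and 0.992 (0.856 to 1.15) in SOX2-positive cells, and 1.26 (1.05 to 1.52) and 1.09 (0.973 to 1.23) in neurons. Intervals of collagen VI-positive cells did not overlap those of any other class; they cover counting error only. The difference is visible in single cells too. Among collagen VI-positive cells with 3 or more KRT8 UMIs, 22 of 29 and 29 of 61 had no KRT18 UMI, and 0 of 29 and 0 of 61 lacked KRT19. Among SOX2-positive cells with as many KRT8 UMIs, 2 of 19 and 2 of 19 had no KRT18 UMI, while 5 of 19 and 6 of 19 lacked KRT19. Neurons gave 0 of 16 and 8 of 34 without KRT18, and 5 of 16 and 11 of 34 without KRT19.

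**Figure D2:**
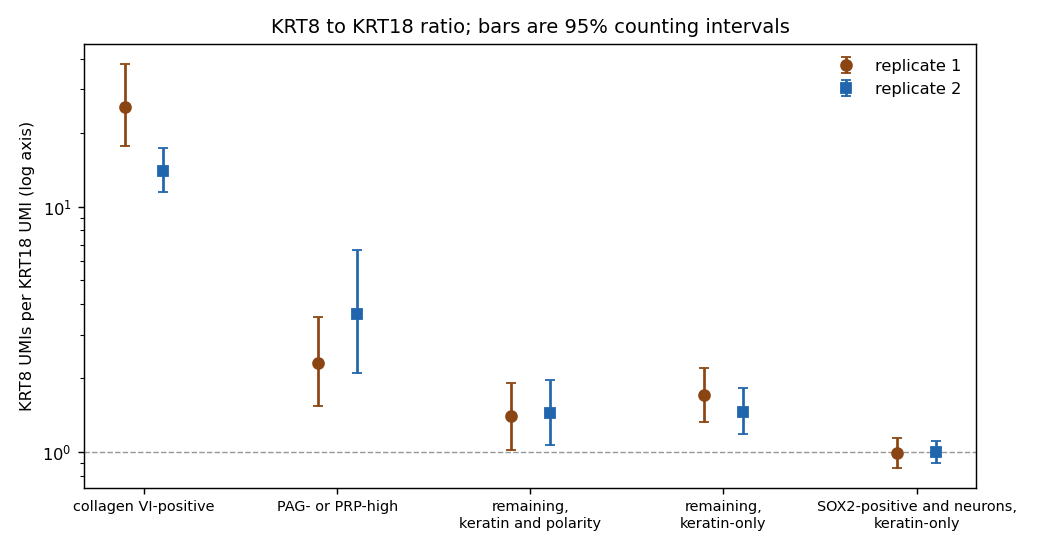
KRT8 UMIs per KRT18 UMI on a log axis, in 5 groups of cells, per replicate, with 95% exact counting intervals. Collagen VI-positive cells lie at 25.5 and 14.0, and keratin-only SOX2-positive cells and neurons at 0.993 and 1.00.

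RAB25 had 54 and 45 UMIs in the 13 and 13 PAG- or PRP-high cells, which is 340 and 336 CPM. It had 0 UMIs in both replicates of collagen VI-positive cells, where the limit of 3 cells among 38 and 67 is a share of 7.89% and 4.48% (counting error only). RAB25 was thus at least 134-fold higher in PAG- or PRP-high than in collagen VI-positive cells, taking 3 counts over both replicates as the floor. SOX2-positive cells held RAB25 at 2.56 and 0 CPM (7 and 0 UMIs), and the edgeR log2 difference of PAG- or PRP-high cells from them was 8.94 (SE 0.46, adjusted p = 2.66e-27). Without replicate 2 the difference was 7.20. The 3 RAB25 UMIs of neurons made the ratio of PAG- or PRP-high cells to neurons 1120 (95% counting interval 372 to 5524). The remaining cells held RAB25 at 9.23 and 4.69 CPM, with 24.4% and 20.3% of its UMIs over all kept cells.

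AP1M2 and CRB3 were rarer and had their highest levels in the same class, though not all their UMIs. The remaining cells held AP1M2 at 3.23 and 2.74 CPM, with 31.8% and 26.9% of its UMIs over all kept cells. They held CRB3 at 0.461 and 3.91 CPM, with 9.09% and 52.6% of its UMIs. AP1M2 stood at 88.2 and 105 CPM in PAG- or PRP-high cells, against 0 and 1.24 in collagen VI-positive cells, 0 and 0 in SOX2-positive cells, and 0.228 and 0.361 in neurons. Its ratio to collagen VI-positive cells rests on 28 UMIs against 1 and was 114 (counting interval 18.8 to 4647), and it was at least 227-fold higher than in SOX2-positive cells. CRB3 stood at 56.7 and 67.3 CPM in PAG- or PRP-high cells and had 1 UMI in SOX2-positive cells and 0 in collagen VI-positive cells and neurons. CRB3 was at least 24.4-fold higher in PAG- or PRP-high than in collagen VI-positive cells and at least 204-fold higher than in neurons. Both genes passed the edgeR threshold in PAG- or PRP-high cells against each of the other 3 classes. The edgeR adjusted p-values ran from 1.23e-08 to 3.39e-19 for AP1M2 and from 1.34e-06 to 3.78e-14 for CRB3. The expression filter admitted both genes only through their level in PAG- or PRP-high cells, so these calls are no independent support.

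CLDN3 and ELF3 were the polarity genes with scattered UMIs in neural cells. CLDN3 stood at 453 and 120 CPM in PAG- or PRP-high cells, 0 and 1.24 in collagen VI-positive cells, 5.13 and 4.09 in SOX2-positive cells, and 5.01 and 7.41 in neurons. In the remaining cells CLDN3 stood at 12.5 and 16.8 CPM, with 19.9% and 32.8% of its UMIs over all kept cells. The replicates of PAG- or PRP-high cells were far apart for CLDN3, and both lay above all other classes. A single cell held 42 of the 72 CLDN3 UMIs of replicate 1. Against SOX2-positive cells the edgeR log2 difference was 6.61 (SE 0.50, adjusted p = 1.54e-08) and 5.21 without replicate 1. The 88 CLDN3 UMIs against 1 gave a ratio to collagen VI-positive cells of 357 (counting interval 62.5 to 14266). ELF3 stood at 94.5 and 120 CPM in PAG- or PRP-high cells, 5.29 and 4.94 in collagen VI-positive cells, 2.20 and 4.32 in SOX2-positive cells, and 1.37 and 1.81 in neurons. In the remaining cells ELF3 stood at 5.54 and 8.22 CPM, with 25.0% and 28.0% of its UMIs over all kept cells. The edgeR log2 difference of ELF3 between PAG- or PRP-high and collagen VI-positive cells was 4.34 (SE 0.63, adjusted p = 7.11e-09). Collagen VI-positive cells in turn held more ELF3 than neurons (log2 2.26, SE 0.89, edgeR adjusted p = 0.0264), from 6 UMIs against 16.

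DSC2 had its highest level in collagen VI-positive cells, like KRT8 and KRT19 and unlike the polarity genes. It stood at 71.4 and 74.1 CPM in collagen VI-positive cells, 31.5 and 44.8 in PAG- or PRP-high cells, 13.2 and 6.37 in SOX2-positive cells, and 4.78 and 6.14 in neurons. DSC2 was detected in 16 of 38 and 37 of 67 collagen VI-positive cells. Its edgeR log2 difference from SOX2-positive cells was 3.79 in collagen VI-positive cells (SE 0.31, adjusted p = 8.91e-22) and 2.67 in PAG- or PRP-high cells (SE 0.64, adjusted p = 0.000299). Leaving out replicate 2 gave 3.04 and 1.78, and leaving out replicate 1 gave 4.11 and 3.26. The difference between these classes, -1.12 (SE 0.48, PAG- or PRP-high minus collagen VI-positive), did not pass the threshold (edgeR adjusted p = 0.0702), although it did with stricter (-1.24, adjusted p = 0.0416) and with looser class thresholds (-1.28, adjusted p = 0.0409).

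Counted over the 9 genes, 3 were higher in collagen VI-positive than in SOX2-positive cells and none lower; 50.5% of all tested genes were called in this contrast (23.9% higher and 26.6% lower). Among cells with at least 10% ribosomal protein UMIs this count was also 3. Against neurons 4 were higher in collagen VI-positive cells (3 with that minimum), with 51.0% of all genes called (23.6% higher and 27.4% lower). Between PAG- or PRP-high and collagen VI-positive cells 5 were higher and 2 lower, with 29.4% of all genes called (8.9% higher and 20.5% lower). PAG- or PRP-high cells had 8 of 9 higher than SOX2-positive cells, where 14.6% of all genes were called higher, 29.3% lower and 43.9% in either direction. The count was again 8 of 9 against neurons, with 14.9% called higher, 29.8% lower and 44.7% in either direction. AP1M2 and CRB3 were rare in every other class and were tested only through their level in PAG- or PRP-high cells. Their calls in that class are therefore no independent support. SOX2-positive cells and neurons differed in 0 of 9 genes by edgeR and in 0 by DESeq2, with 0 of 9 at an unadjusted p under 0.05 in edgeR and 26.8% of all genes called by edgeR (12.0% higher and 14.8% lower). These contrasts share their classes and are not independent of each other. The median over all genes was not centred on 0 in them: it was -0.20, -0.22, -0.82, -1.36, -1.31 and 0.02 (log2) in the order given. Scaling by plain CPM in place of TMM moved KRT18 between collagen VI-positive and SOX2-positive cells from 0.95 to 0.05. It kept the direction of KRT8 and KRT19 between all classes except SOX2-positive cells and neurons, where KRT8 went from -0.02 to 0.16 and KRT19 from -0.12 to 0.04.

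The wider list of 53 other epithelial genes had 44 tested. Collagen VI-positive cells had 15 higher and 5 lower than SOX2-positive cells (list median 0.33, all genes -0.20), where 23.9% of all genes were called higher and 26.6% lower. TMEM54, PPL, ELF1 and PERP had the 4 largest differences, TMEM54 from 11 UMIs against 4 and PPL from 10 against 4. In collagen VI-positive cells 35 of the 53 genes had a UMI, and CDH1, CLDN7, ESRP1, ESRP2 and SPINT1 were among those with none. PERP, a desmosome-associated membrane protein, differed in both replicates (124 and 179 CPM against 23.1 and 14.3; edgeR log2 3.91, SE 0.23, adjusted p = 6.42e-25). PAG- or PRP-high cells had 19 higher and 9 lower than collagen VI-positive cells (list median 1.83, all genes -0.82), beside 8.9% higher and 20.5% lower of all genes. The tight-junction claudin CLDN4 stood at 403 and 269 CPM there, the adhesion molecule EPCAM at 81.9 and 44.8, the membrane protease ST14 at 63.0 and 37.4, and the junction protein TJP3 at 44.1 and 29.9, with 0 UMIs of each in collagen VI-positive cells. The list counts were 25 higher and 6 lower for PAG- or PRP-high against SOX2-positive cells (all genes 14.6% and 29.3%) and 28 and 6 against neurons (14.9% and 29.8%). They were 16 and 2 for collagen VI-positive cells against neurons (23.6% and 27.4%), and 7 and 2 for SOX2-positive cells against neurons (12.0% and 14.8%). Listed genes that were rare elsewhere could also be tested only through PAG- or PRP-high cells.

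Detection in single cells gave the same contrast between classes. After thinning each cell to 2500 UMIs, which left out shallower cells, 32 of 35 (91.4%) and 64 of 65 (98.5%) collagen VI-positive cells held a keratin UMI, against 5 of 9 (55.6%) and 6 of 10 (60.0%) PAG- or PRP-high cells. The share was 21.4% and 19.7% in SOX2-positive cells and 15.1% and 19.4% in neurons. Unthinned, these shares were 86.8% and 97.0%, 69.2% and 61.5%, 34.2% and 37.0%, and 30.1% and 33.2%. A polarity UMI was found after thinning in 9 of 9 (100%) and 7 of 10 (70.0%) PAG- or PRP-high cells, 1 of 35 (2.86%) and 0 of 65 collagen VI-positive cells, 2.38% and 2.64% of SOX2-positive cells, and 1.20% and 2.05% of neurons. All shares are of sorted cells. As a gauge of free RNA, cells with at least 20% globin-list UMIs (9 and 17 cells of the remaining class, median 27366 and 24710 UMIs) gave a thinned keratin share of 11.1% (Clopper-Pearson 95% interval 0.281% to 48.2%) and 11.8% (1.46% to 36.4%), and a polarity UMI in 0 of 9 and 0 of 17. The keratin shares of SOX2-positive cells and neurons lie within those intervals, so a single keratin UMI in a neural cell is not read as expression here.

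Cells with high keratin counts held most keratin UMIs of the neural classes. In SOX2-positive cells the 20 and 24 cells with 10 or more keratin UMIs held 73.5% and 63.7% of the class's keratin UMIs, and in neurons 17 and 37 such cells held 66.0% and 76.9%. The highest count was 108 and 150 in a SOX2-positive cell and 61 and 205 in a neuron, against 20 and 7 in the globin-rich cells. Ribosomal protein transcripts moved with them. Of SOX2-positive cells and neurons with at least 10% ribosomal protein UMIs, 54 of 418 (12.9%) and 135 of 697 (19.4%) held 3 or more keratin UMIs, against 17 of 612 (2.78%) and 18 of 630 (2.86%) of those below 10%. Median depth also differed, at 9304 and 9680 UMIs against 5335 and 5371. Keratin levels were 357 and 415 CPM against 77.6 and 76.7. The part of depth and of RNA composition in this difference was not tested.

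Keratin-positive cells, with 3 or more UMIs of KRT8, KRT18 and KRT19 together, numbered 172 of 1939 and 332 of 2417. They made up 10.6% and 11.1% of SOX2-positive cells (median 6287 and 7364 UMIs) and 4.49% and 11.9% of neurons (6955 and 7704). The globin-rich cells, at a median of 27366 and 24710 UMIs, met the same minimum in 1 of 9 and 6 of 17, so a count of 3 keratin UMIs alone is not read as expression here. Of the keratin-positive cells, 144 and 293 had no UMI of the 5 polarity genes (keratin-only), and 28 (16.3%, Clopper-Pearson 95% interval 11.1% to 22.7%) and 39 (11.7%, 8.49% to 15.7%) had at least 1. Collagen VI-positive cells contributed 33 and 64 keratin-positive cells, of which 2 and 6 had a polarity UMI, and none had more than 1. PAG- or PRP-high cells contributed 5 and 8, of which 5 and 6 had polarity UMIs, with a median of 14 and 14. Among SOX2-positive cells 2 of 43 (4.65%) and 5 of 66 (7.58%) keratin-positive cells had a polarity UMI, and among neurons 4 of 28 (14.3%) and 6 of 87 (6.90%). Over all cells of these classes, with or without keratins, the unthinned share was 4.93% and 5.38% in SOX2-positive cells and 4.65% and 6.83% in neurons. The remaining cells held more of them, 15 of 50 (30.0%) and 14 of 72 (19.4%). PAG- or PRP-high and remaining cells together therefore held most polarity UMIs of keratin-positive cells, 50.7% and 43.0% in the former and 41.3% and 41.9% in the latter.

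**Figure D3:**
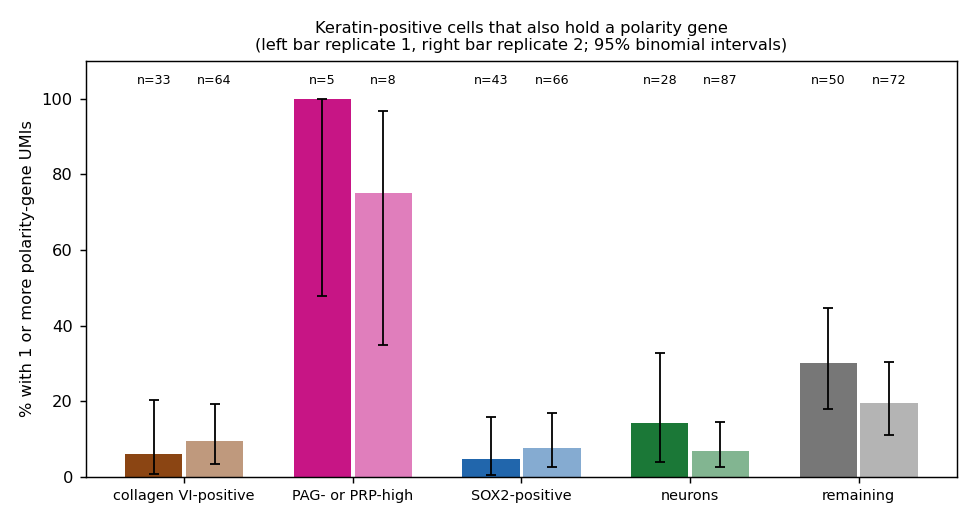
Percent of keratin-positive cells (3 or more keratin UMIs) that also hold at least 1 polarity-gene UMI, by class and replicate, with 95% Clopper-Pearson intervals and the number of keratin-positive cells (n). The share is 100% and 75.0% in PAG- or PRP-high cells and below 15% in collagen VI-positive cells, SOX2-positive cells and neurons.

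Detection of several polarity genes in 1 cell separated the classes further. Cells with 4 or 5 of the 5 polarity genes numbered 7 and 10; 6 and 6 were PAG- or PRP-high, 1 and 4 were remaining cells, and none was collagen VI-positive, SOX2-positive or a neuron. Of the 18 and 19 cells with a RAB25 UMI, 7 and 9 also held AP1M2 and 7 and 9 held CRB3, and 12 and 11 held KRT8. CRB3 cells overlapped most: 7 of 8 and 9 of 12 held RAB25, and 7 of 8 and 10 of 12 held KRT8. CLDN3 was less tied to the others, with RAB25 in 6 of 58 and 8 of 77 CLDN3 cells and KRT8 in 19 of 58 and 22 of 77. Read from the keratin side, 12 of 271 and 11 of 411 KRT8 cells held RAB25. These counts rise with depth: thinned to 2500 UMIs, 1 of 10 and 1 of 8 RAB25 cells held AP1M2, 0 of 10 and 1 of 8 held CRB3, and 4 of 10 and 4 of 8 held KRT8. Thinned CLDN3 cells held RAB25 in 2 of 23 and 4 of 32 and KRT8 in 6 of 23 and 8 of 32.

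**Figure D4:**
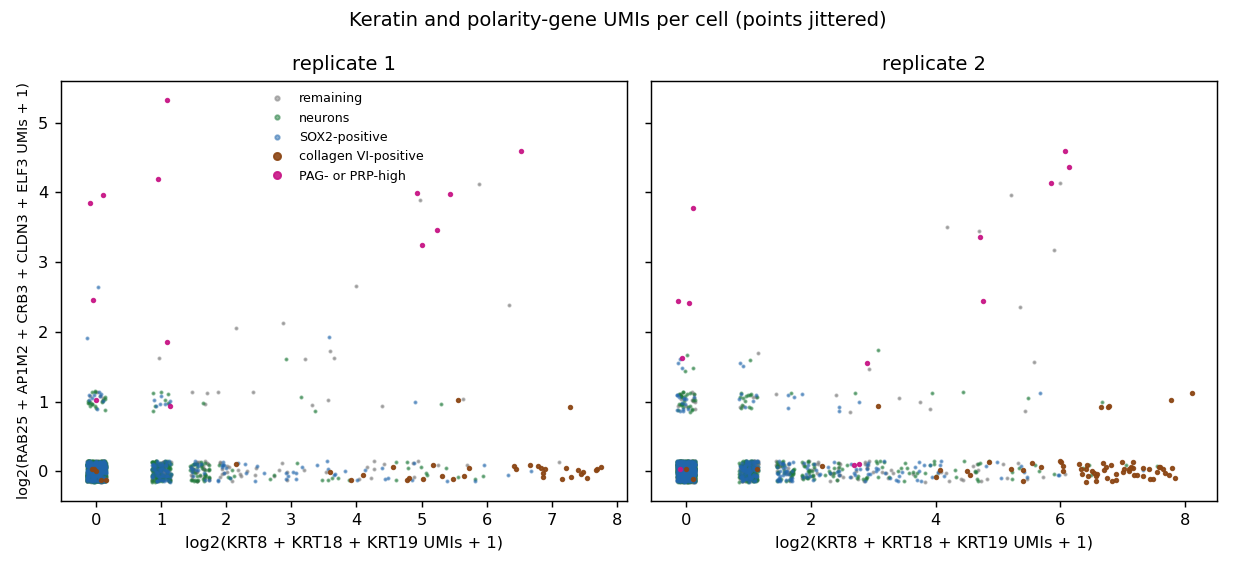
Keratin UMIs (KRT8, KRT18 and KRT19) against polarity-gene UMIs (RAB25, AP1M2, CRB3, CLDN3 and ELF3) of every cell of the 5 classes, as log2(UMIs + 1) with jitter, per replicate. Collagen VI-positive cells run along the keratin axis with at most 1 polarity UMI, and PAG- or PRP-high cells lie high on the polarity axis both with and without keratins.

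The 13 and 13 PAG- or PRP-high cells fell into cells with and without keratins, a split made after their values were seen and described with no test. The 5 and 8 cells with 3 or more keratin UMIs held PAG transcripts at 25742 and 12902 CPM and PRP transcripts at 10.7 and 0 CPM. The 8 and 5 cells with fewer keratin UMIs held PRP transcripts at 39731 and 23828 CPM and PAG transcripts at 12320 and 7142 CPM, and PRP exceeded PAG UMIs in 7 of 8 and 5 of 5 of them. PAG2 stood at 16194 and 5755 CPM in the keratin-positive cells and had no UMI in the others, and PRP1 was at 0 and at 17065 and 10323 CPM in turn. Both kinds held polarity genes, in 5 of 5 and 6 of 8 keratin-positive cells and in 8 of 8 and 4 of 5 of the others. RAB25 stood at 492 and 374 CPM in the keratin-positive cells and 122 and 203 in the others. CLDN3 lay the other way, at 21.4 and 38.4 CPM against 1071 and 406, with 42 UMIs of 1 keratin-poor cell in the value of 1071. DSC2 stood at 53.5 and 57.6 CPM against 0 and 0. Depth was also unequal, with a median of 17038 and 10769 UMIs against 3180 and 5486, and its part was not tested. PAG and PRP genes form families of near-identical members, so the level of a single member is uncertain.

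**Figure D5:**
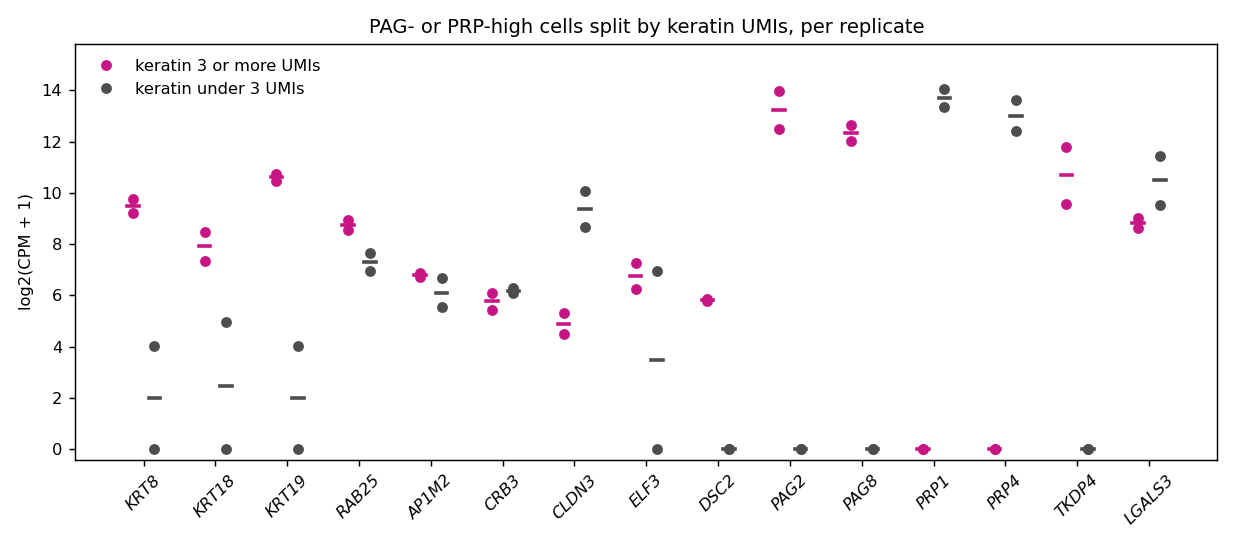
PAG- or PRP-high cells with 3 or more keratin UMIs (5 and 8 cells) and with fewer (8 and 5 cells), as log2(CPM + 1) per replicate; short lines are means of the 2 replicates. PAG2, PAG8, TKDP4 and DSC2 are at 0 in the keratin-poor cells, PRP1 and PRP4 are at 0 in the keratin-positive cells, and RAB25, AP1M2 and CRB3 are present in both.

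Keratin-only cells were next set against all keratin-positive cells with a polarity UMI, over every class. The sides differed in their mix of classes. Collagen VI-positive cells gave 27.1% and 25.0% of all UMIs of keratin-only cells, against 6.38% and 18.6% on the other side. PAG- or PRP-high cells gave 0% and 0.197% against 31.8% and 23.6%. Apart from leaving out a class, the part of this mix in the differences was not tested. Of 9261 genes tested by edgeR, 10.8% were called, 3.21% higher and 7.57% lower in keratin-only cells. The 8 genes that made the split are left out of the account. This fit pooled the spread over genes, so its p-values do not measure how far apart the replicates of a single gene lay. DSC2, the 1 member that did not, had a log2 value of -0.83 (keratin-only minus both) that did not pass the threshold (adjusted p = 0.203). Without collagen VI-positive cells it did (-1.84, adjusted p = 0.0232). Other epithelial genes were lower in keratin-only cells in 21 of 38 tested and higher in 1 (list median -1.42, all genes 0.01). CLDN4 was at 0 and 3.84 CPM in keratin-only cells against 258 and 172 (log2 -6.39, SE 0.42, edgeR adjusted p = 6.40e-50), and the keratin KRT7 at 1.59 and 0.698 against 109 and 110 (-6.77, SE 0.51, adjusted p = 2.34e-37). The protease inhibitor SPINT1 had 1 UMI in keratin-only cells and its target ST14 had 2, against 57.8 and 28.7 CPM and 85.0 and 31.1 CPM.

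Trophoblast genes, a list that also holds KRT7, were lower in 7 of 9 tested, beside 7.57% of all genes. KRT7 itself stood at 0 and 29.9 CPM in PAG- or PRP-high cells and at 263 and 371 CPM in remaining cells with both keratin and polarity UMIs. TKDP4, a trophoblast Kunitz-domain protein, stood at 0 and 1.74 CPM against 251 and 876, and CYP11A1, the enzyme that begins steroid synthesis, at 3.18 and 0.349 against 98.6 and 64.6. The genes that fell most with a mean of at least 20 CPM were C9H6orf58, CD48, PAG12, TKDP4, PAG2, LCP1, PAG8 and DHRS9. PAG2 was at 3.18 and 6.98 CPM against 5159 and 1405 (log2 -8.87, SE 0.34, edgeR adjusted p = 3.55e-143). Of its 2105 UMIs in cells with keratin and polarity UMIs, 2096 were in PAG- or PRP-high cells, a class defined by such counts. For PAG8 this was 1008 of 1012 UMIs and for PAG12 252 of 255, so these falls reflect that class. CD48 and LCP1 are known from blood cells; CD48 was at 0 against 85.0 and 64.6 CPM, and LCP1 at 0 and 0.349 against 170 and 67.0.

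Mesenchymal genes were higher in keratin-only cells in 10 of 15 tested, none lower, beside 3.21% of all genes higher and 7.57% lower. The collagen-binding proteoglycans LUM (381 and 455 CPM against 47.6 and 189; edgeR log2 1.79, SE 0.29, adjusted p = 2.49e-08) and DCN (1087 and 1220 against 204 and 692; 1.41, SE 0.25, adjusted p = 6.27e-07) led them, with ZEB2 and SPARC. Collagen VI-positive cells, with 27.1% and 25.0% of keratin-only UMIs, held LUM at 1206 and 1614 CPM and DCN at 3263 and 4179 CPM. Beyond leaving out a class, the part of this class mix in the mesenchymal rise was not tested. Neural progenitor genes were higher in 3 of 5 tested (PAX6, HES5 and NES). Globin genes were among the largest rises, 4 of 4 tested in the erythroid list. HBZ stood at 6638 and 25846 CPM against 292 and 285; 1 and 6 of the globin-rich cells passed the keratin minimum, and with a minimum of 1 keratin UMI the HBZ difference was -0.15 and was not called. Beside the globins HBM, HBE4, HBZ and HBE1, the 8 largest rises were MYL7, CNTNAP2, LRFN5 and SFRP1. Leaving out PAG- or PRP-high cells lowered the calls from 998 to 377, 15 of them in the other epithelial list against 22 before, and leaving out collagen VI-positive cells gave 1273.

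Keratin-only cells of the SOX2-positive and neuron classes (65 and 142 cells) differed from collagen VI-positive cells in their keratin balance and in other genes; this group was chosen after its values were seen. They held 0.993 (0.865 to 1.14) and 1.00 (0.906 to 1.11) KRT8 UMIs per KRT18 UMI. Their COL1A1 level was 20.8 and 72.9 CPM against 10090 and 10383 in collagen VI-positive cells, and their SOX2 level 432 and 351 against 7.93 and 3.71, which the class rule favours. The GFP row of the table stood at 2333 and 2404 CPM in them against 68.7 and 40.8. In cells of the same classes with no keratin UMI, GFP stood at 1901 and 2185 CPM. By a fixed rule of size, the genes highest in the neural keratin-only cells against these keratin-free cells were COLEC12, IGF2, RSPO3, APOE, TNNI1 and TAGLN. RSPO3, a secreted agonist of WNT signalling, stood at 408 and 412 CPM against 109 and 103, and APOE, an apolipoprotein, at 371 and 288 against 88.7 and 76.9. DCC, a netrin receptor of growing axons, and ANK2, an ankyrin of the membrane skeleton, were among the 6 lowest, ANK2 at 74.6 and 60.2 against 535 and 479 CPM. The ribosomal protein share was 21.1% and 23.8% in the keratin-only cells against 3.90% and 6.31%, and its part in these differences was not tested.

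Among 12946 genes compared across all kept cells, those most like the summed keratins were S100A10, KLK1, ANXA2, A2M, COL1A1 and AQP1, with a mean Pearson r over the 2 replicates from 0.548 down to 0.484. The summed polarity genes were most like CLDN4 (0.498), CKMT1A (0.497), LGALS3 (0.437), ARHGDIB (0.434), AIF1 (0.431) and C15H11orf34 (0.424). The lists share no gene, but lists this short from 12946 genes would seldom share any, so this is not read as a result. DSC2 had r = 0.145 with the keratins (0.0799 and 0.211 in replicates 1 and 2) and 0.00992 with the polarity genes. RAB25 had 0.131 and AP1M2 0.152 with the keratins, so DSC2 is not set apart from them by that value. These values are descriptions across 1939 and 2417 cells that share libraries and differ in depth.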

How the data were processed

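The authors deposited whole-number UMI counts by gene and cell, not normalized. The submitters' processing notes name Cell Ranger, Seurat 4.3.0, R 4.1.2 and the bosTau9 build, and no annotation. Replicates 1 and 2 held 1973 and 2464 cells (11182089 and 15427708 UMIs), and shared 6 barcodes. A cell needed at least 500 detected genes, which 34 and 44 did not reach. Scrublet (expected rate 0.06) called 0 and 3 doublets, which were removed, so doublets were hardly assessed. Gene symbols were looked up in RefSeq (17405 matched).

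Cells that met a collagen VI or PAG/PRP rule with another rule (6 and 6) and cells with 1 SOX2 UMI that met no rule (281 and 365) were left out of the classes. UMIs were summed per class and replicate and fitted with edgeR 4.0.16 in R 4.3.3: TMM, filterByExpr, robust quasi-likelihood, adjusted p threshold 0.05, over 5 classes and 6 contrasts. This filter can keep a gene on its level in a single class, so genes rare elsewhere were tested only through the class that held them. Replicate was a block, since classes of 1 replicate come from 1 suspension, which is where the pairing comes from. The class fit had 4 residual degrees of freedom beside a median prior of 122.6 from pooling over genes, so most of the spread was pooled. The keratin-only fit had 1, and its median prior was infinite. For the median gene of that fit the spread was wholly the pooled one, whatever its own replicates showed. Shares have exact binomial (Clopper-Pearson) 95% intervals, and floors are 3 counts. DESeq2 1.42.0, other filters, thresholds and depths, and leaving out each replicate were the alternatives. Named genes are the 9 members, up to 4 called genes per list with the largest change, the 8 largest rises and falls (mean of 20 CPM or more) and the 6 genes most alike; groups compared by size used a minimum of 50 CPM and a pseudocount of 20. The members and lists were chosen with earlier results of these data known. Python 3.11.15 and scanpy 1.11.5 were used. No sequences are printed.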

Additional observations from a re-analysis of the deposited data

How the results depend on the processing

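Of 831 values of single genes under the alternatives, 621 stayed the same, 68 fell below the threshold, 10 rose past it, 126 moved and 6 reversed. In the tested alternatives, the same means the same direction and side of the threshold. Without a replicate there is no test, so there the same means within 1 SE of the main value, and moved means beyond it. All values that moved are of that kind: 61 moved and 27 stayed without replicate 1, and 65 and 22 without replicate 2. The reversals were MARVELD2 between collagen VI-positive cells and neurons without replicate 2 (-0.83, against 4.32 without replicate 1), DSC2 between SOX2-positive cells and neurons among cells with at least 10% ribosomal protein UMIs (-0.16), HBZ (-0.15) and HBE1 (-0.52) with a keratin minimum of 1 UMI, and RBP4 (-0.68) and APOA1 (-0.07) in keratin-only cells without collagen VI-positive cells; the cause was not tested. Calls between keratin-only and keratin and polarity cells went from 998 to 565 with 10% ribosomal protein UMIs, 282 by DESeq2, 1928 with a polarity minimum of 2 UMIs, 625 when the split was made on thinned cells and 377 without PAG- or PRP-high cells. Other epithelial genes called between SOX2-positive cells and neurons went from 9 to 14 with stricter class thresholds, 3 with 10% ribosomal protein UMIs, 5 with no replicate block and 3 by DESeq2; no other count of calls moved by over 1.5 times without the replicate block. Shares of cells with a UMI rise with depth by construction. Without thinning the polarity share was 7.11% in collagen VI-positive cells (mean over replicates; 1.43% thinned), 5.15% in SOX2-positive cells (2.51%) and 5.74% in neurons (1.62%), and the keratin share 65.4% in PAG- or PRP-high cells (57.8%), 35.6% in SOX2-positive cells (20.6%) and 31.7% in neurons (17.3%). At 4000 UMIs the keratin shares of these 3 classes were 62.5%, 27.9% and 22.0%, and the polarity shares of the neural classes 3.46% and 3.26%. Stricter and looser class thresholds gave 61.1% and 53.1% for keratins in PAG- or PRP-high cells, and 2.89% and 2.21% for polarity genes in SOX2-positive cells. Leaving out a replicate leaves no residual degrees of freedom, so it gives values with no test; KRT18 between PAG- or PRP-high and collagen VI-positive cells was -0.14 without replicate 1 and 1.37 without replicate 2. With 10% ribosomal protein UMIs replicate 1 kept 9 PAG- or PRP-high cells, under the minimum of 10, so their contrasts gave no value. The added alternatives, without collagen VI-positive or PAG- or PRP-high cells and without PAG1 in the class rule, were chosen after seeing the data; the last changed no call. With 26 PAG- or PRP-high cells, depth limits what can be said of rare genes there.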

Other observations

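The remaining cells with keratin and polarity UMIs (15 and 14 cells) differed from the PAG- or PRP-high cells with both; this group was chosen after its values were seen and is described with no test. Both groups held CLDN4 and CDH1, but WFDC2, a secreted protease-inhibitor-like protein of epithelia, stood at 2807 and 4289 CPM in the remaining cells and at 0 and 0 in the PAG- or PRP-high cells. ATP6V1G3 and ATP6V1C2, subunits of the proton pump V-ATPase, stood at 2561 and 1871 CPM and at 933 and 759 CPM, and CA12, a carbonic anhydrase, at 704 and 1050 CPM, each against 0. EPCAM stood at 551 and 671 CPM and KRT7 at 263 and 371 CPM in these cells. PAG2 was at 42.4 and 35.3 CPM in them.

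The replicates of these 15 and 14 cells were unlike in genes of yolk sac and liver endoderm. The plasma protein AHSG had 0 UMIs in replicate 1 and 830 in replicate 2, SERPINA1 0 and 728, and AFP 0 and 202. The summed yolk sac endoderm list stood at 84.8 and 22149 CPM. Polarity genes were present in both replicates, at 483 and 662 CPM.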
